A study of Homo sapiens with 7 samples.

Results

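The sites described here lie next to the centromere gaps of the human genome assembly hg19. Of 5782 sites with deposited counts, 451 (7.8%) were taken because their centre lay between 5 Mb below and 8 Mb above the start of the gap on 1 of 23 chromosomes, with gap starts in rounded megabases. The rule used positions only, though it was chosen with earlier results of these data known. Gap start means the rounded position throughout, so distances from it in kb are not exact. The sites came from CUT&RUN of the Rh4 line, an established rhabdomyosarcoma line that carries the fusion transcription factor PAX3-FOXO1. The cells were labelled as PAX3-FOXO1-FKBP, and an antibody against HA was used, so the signal is that of the tagged fusion only as far as the tag reports it. All groups used here were crosslinked and shared the tagged line. They were DMSO, the solvent control (2 libraries), 500 nM dTAG47 for 2 h (2 libraries) and 500 nM dTAG47 for 4 h (2 columns, counted as 1 library for the reason given below).

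In hg19 each centromere is a gap of unknown bases, and the sequence on either side is rich in satellite repeats and recent duplications. Cells carry many more copies of such repeats than the assembly shows, so reads from several copies can be placed at 1 position. CUT&RUN tethers a nuclease to an antibody and sequences the DNA that is cut free. PAX3-FOXO1 carries the DNA-binding domains of PAX3 and the transactivation domain of FOXO1, and is known for binding distal enhancers of myogenic genes. dTAG47 links the FKBP tag to an E3 ubiquitin ligase and so leads to loss of the tagged protein. The repeat content and the sequence of the sites were not analysed here, and nor was the DMSO library made without crosslinking.

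Total counts in all sites ran from 110440 to 380057 per library, and sequencing depth outside the sites is unknown. The 4 h columns differed by no more than sampling noise, with a chi-square of 1.01 per degree of freedom (5575 sites, p = 0.24), while DMSO A and B gave 2.09 and 2 h A and B gave 1.96. At the member sites alone the same measure was 1.07 at 4 h, 5.56 with DMSO and 3.91 at 2 h. No label ties libraries to separate cultures, so p-values measure no more than how far these libraries differ, for technical reasons or others.

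The member sites crowded against the gaps. In steps of 0.5 Mb, 48 sites lay in the last step before the gap start and 53 in the step from 3 to 3.5 Mb above it, while the steps from 5 to 0.5 Mb below held 14 to 28 each. None lay between 0.5 and 2.5 Mb above the start, and no site can lie within the unknown bases of a gap. The ends of the gaps were not part of the rule. The 117 sites from 0.5 Mb below to 0.5 Mb above the start, or from 2.5 to 3.5 Mb above it, are called gap-adjacent sites here, and the other 334 farther sites. These limits were set after the counts had been seen. Gap-adjacent sites were on 18 chromosomes, and 69.2% of them had another site within 10 kb, against 17.7% of the farther sites and 12.9% of the 5331 sites elsewhere. Neighbours of this kind may share sequence, so they are not independent of each other.

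**Figure D1:**
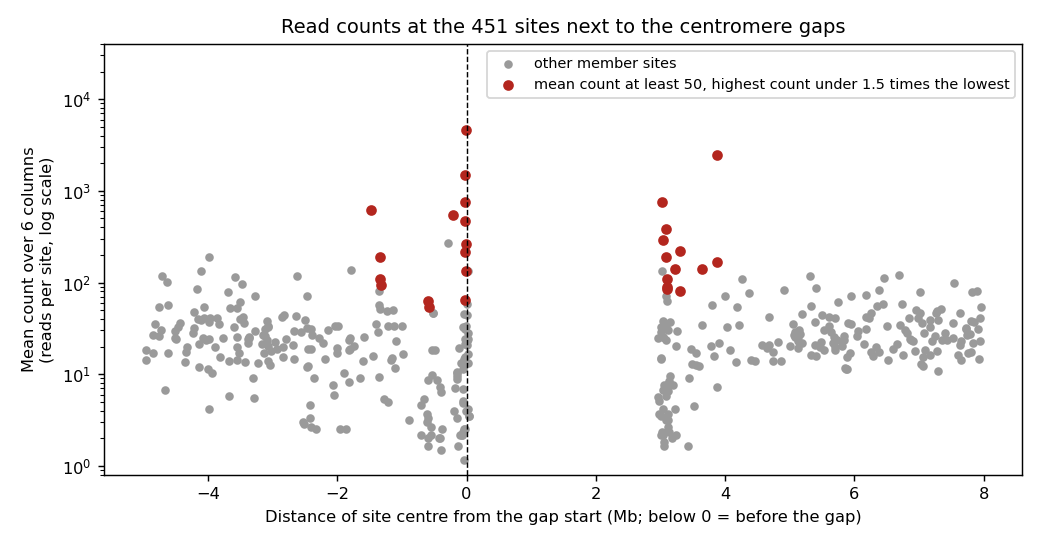
Each point is 1 of the 451 sites. The x axis gives the distance of its centre from the gap start in Mb, and the y axis its mean count over the 6 columns on a log scale. Red points are the 28 sites with a mean count of at least 50 whose highest count was under 1.5 times the lowest, and 19 of them are gap-adjacent.

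Counts at the member sites spread over a wide range. The median site had a mean count of 23.5 over the 6 columns, against 25.2 at the sites elsewhere, but both ends of the range were fuller. A mean of at least 100 was seen at 35 member sites (7.76%) and at 3.49% of the other sites, and a mean under 10 at 91 member sites (20.2%) and at 3.4% of the others. Gap-adjacent sites held the extremes, with 15.4% at a mean of at least 100 and 47% under 10. Of the 500 sites strongest in DMSO, 52 were member sites, which is 10.4% of that list and 11.5% of the member sites.

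The highest site of the whole table stood 14.8 kb before the rounded gap start of chromosome 1, at chr1:121484990-121485390. Its reads numbered 4842 and 4496 in the DMSO pair, 4740 and 4330 in the 2 h pair, and 4720 and 4715 in the 4 h pair (A first throughout). The groups overlapped, and the highest count was 1.12 times the lowest. At chr7:61968821-61969221, 3.87 Mb above the gap start, the counts were 2639 and 2368 in the DMSO pair, 2671 and 2297 in the 2 h pair, and 2413 and 2540 in the 4 h pair. The groups overlapped here too.

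Other sites among the 10 highest members had the same flat profile. At chr6:58778181-58778581, 21.6 kb before the gap start, there were 1637 and 1394 reads in the DMSO pair, 1580 and 1322 in the 2 h pair, and 1508 and 1537 in the 4 h pair. At chr18:18518819-18519219, 3.02 Mb above the gap start, there were 802 and 726 reads in the DMSO pair, 800 and 662 in the 2 h pair, and 774 and 739 in the 4 h pair. At each of these 4 sites library A was above library B both with DMSO and at 2 h.

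Flat counts were found on both sides of the gaps. At chr20:26189912-26190312 the counts were 606 and 514 in the DMSO pair, 526 and 484 in the 2 h pair, and 530 and 574 in the 4 h pair. At chr10:42385022-42385422 they were 418 and 386 in the DMSO pair, 398 and 349 in the 2 h pair, and 372 and 399 in the 4 h pair. At chr19:27731964-27732364 they were 318 and 287 in the DMSO pair, 290 and 282 in the 2 h pair, and 282 and 276 in the 4 h pair. Over the 10 member sites with the highest mean count, which lay on 10 chromosomes, the mean 4 h count was between 0.889 and 1.13 times the mean DMSO count.

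**Figure D2:**
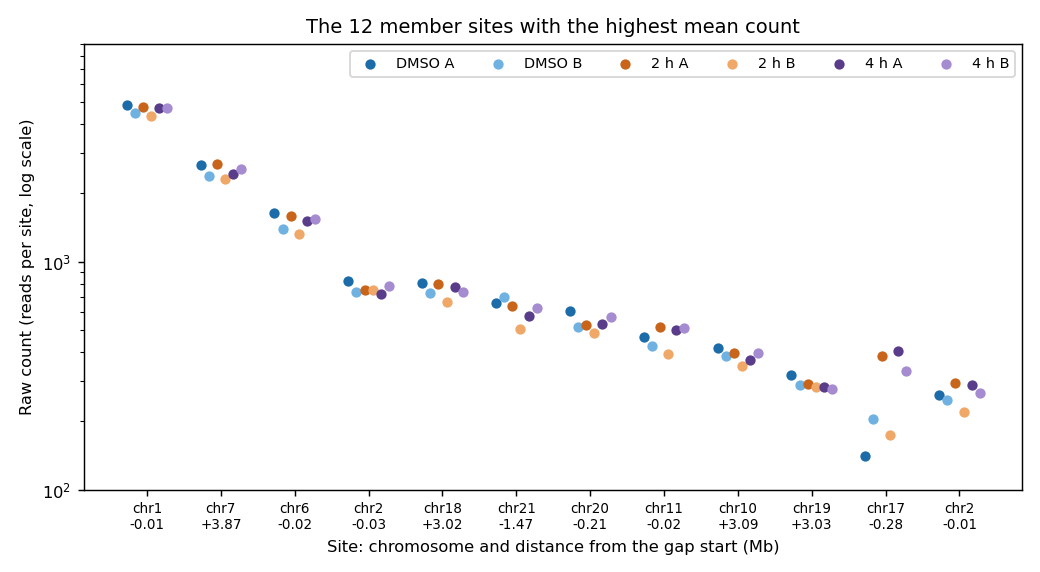
Raw counts per site on a log scale at the 12 member sites with the highest mean count, in their order, each named by its chromosome and its distance from the gap start in Mb. Points are the 6 columns. At 11 sites the columns lie close together, and at the site on chromosome 17 they run from 140 to 404.

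Chromosome 17 held the exception among the 12 highest. At chr17:22020629-22021029, 0.279 Mb before the gap start, there were 140 and 204 reads in the DMSO pair, 384 and 174 in the 2 h pair, and 404 and 330 in the 4 h pair. Both 4 h counts were above both DMSO counts, while the 2 h library B lay between the controls.

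Most strong sites elsewhere did not have flat counts. Among sites with a mean of at least 50, the highest of the 6 counts was under 1.5 times the lowest at 28 of 80 member sites (35%), against 5.95% of all 925 such sites in the table and 3.2% of the 845 that were not members. Of these 28, 19 were gap-adjacent, and those 19 made up 76% of the 25 gap-adjacent sites of that strength. Among the 9 others were chr21:9827046-9827446, with 656 and 699 reads in the DMSO pair, 636 and 508 in the 2 h pair, and 578 and 626 in the 4 h pair, and chr16:33963025-33963425, with 201 and 200, 197 and 160, and 183 and 193. Both lay within 1.5 Mb before the gap start. The 28 sites were picked for level counts and get no test.

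The variance of the raw counts over the 6 columns was divided by the mean, which gives near 1 for counting error alone in columns of equal depth. Totals in sites differed between columns and were not scaled out, so a site that follows them also exceeds 1, and more so the stronger it is. The median was 10.3 over all 80 members with a mean of at least 50. It was 1.87 over the 25 gap-adjacent ones among them and 19.5 over the 55 farther ones, against 20.4 over the 845 non-member sites of that strength. The value was 7.74 at chr1:121484990-121485390 and 9.28 at chr7:61968821-61969221, so these 2 sites varied more than counting error gives at equal depth.

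Rows of neighbouring sites were seen next to some gaps. On chromosome 2, 14 gap-adjacent sites lay between chr2:91845120-91845520 and chr2:92324926-92325326, led by chr2:92269319-92269719, with 825 and 735 reads in the DMSO pair, 754 and 748 in the 2 h pair, and 721 and 784 in the 4 h pair. At chr2:92290767-92291167, in the same row, there were 261 and 248 reads in the DMSO pair, 292 and 219 in the 2 h pair, and 287 and 266 in the 4 h pair. On chromosome 10, 15 sites lay between chr10:42360651-42361051 and chr10:42599426-42599826, and the last of these had 220 and 221 reads in the DMSO pair, 250 and 188 in the 2 h pair, and 222 and 232 in the 4 h pair. On chromosome 11, 6 gap-adjacent sites lay within 29.9 kb of the gap start, of which chr11:51579394-51579794 was the strongest, with 469 and 426 reads in the DMSO pair, 514 and 395 in the 2 h pair, and 499 and 512 in the 4 h pair.

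Summed over the gap-adjacent sites, reads were nearly level between libraries. They were 13405 and 12238 in the DMSO pair, 13353 and 11615 in the 2 h pair, and 12992 and 13037 in the 4 h pair, so the highest sum was 1.15 times the lowest. Over the sites outside the windows the same ratio was 3.82, with sums from 90213 to 344978. The DMSO library B held 0.913 times the reads of library A at the gap-adjacent sites and 1.75 times at the sites elsewhere. The 2 h library B held 0.87 and 0.451 times the reads of its partner. These are differences between libraries of 1 group, and they were smaller at the gap-adjacent sites than elsewhere in both pairs.

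The farther sites differed more between libraries. Their sums were 15329 and 22841 in the DMSO pair, 15024 and 8612 in the 2 h pair, and 11046 and 11444 in the 4 h pair, and the DMSO library B held 1.49 times the reads of library A. The mean 4 h sum was 0.589 times the DMSO mean at the farther sites, 1.02 times at the gap-adjacent sites and 0.479 times at the sites elsewhere. At 2 h the values were 0.619, 0.974 and 0.535. The farther sums include 9 of the 28 flat sites, with chr7:61968821-61969221 among them, and without those 9 the ratio to DMSO was 0.488 at 4 h and 0.528 at 2 h.

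**Figure D3:**
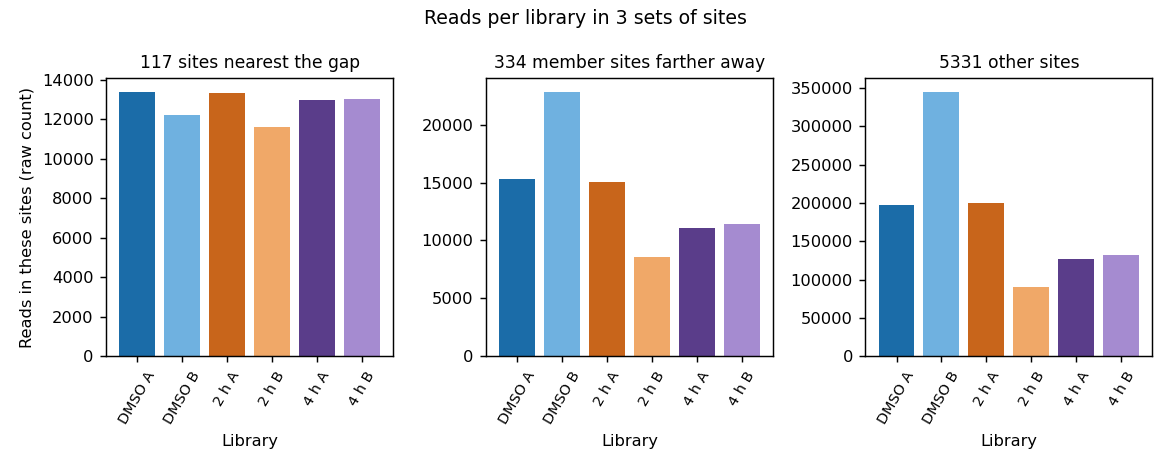
Bars give the raw reads of each library in the 117 gap-adjacent sites, the 334 farther member sites and the 5331 other sites, each panel with its own axis from 0. The first panel is nearly level, from 11615 to 13405 reads, while the third runs from 90213 to 344978.

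The member sites as a whole were then compared between treatments. Their reads summed to 31907 ± 4487 (SD, n = 2) with DMSO, 24302 ± 5763 (SD, n = 2) at 2 h and 24260 at 4 h (n = 1). An exact two-sided permutation test over libraries gave p = 0.333 at the earlier time and p = 0.667 at the later. As a share of all reads in sites, they held 12.7% (95% exact binomial interval 12.6 to 12.8) in DMSO A and 9.23% (9.14 to 9.32) in DMSO B. The value was 12.4% (12.3 to 12.6) in 2 h A and 18.3% (18.1 to 18.5) in 2 h B, and 15.9% (15.7 to 16.1) and 15.6% (15.4 to 15.8) in the 4 h columns. The 2 h library A lay below DMSO A, so the groups overlapped at 2 h, and the intervals cover counting error only.

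The mean share was 11% ± 2.46 (SD, n = 2) with DMSO, 15.4% ± 4.16 (SD, n = 2) at 2 h and 15.7% at 4 h (n = 1). Exact two-sided permutation tests gave p = 0.667 at both times, and 0.333 is the smallest value that so few libraries allow. A change in share was thus not detectable. The library with the fewest reads in sites, 2 h B, had the highest share, and the one with the most, DMSO B, the lowest, whose part in the result was not tested. A single site, chr1:121484990-121485390, took 2.14% and 1.18% of all reads in the DMSO pair, 2.08% and 3.92% in the 2 h pair, and 3.12% and 3.01% in the 4 h pair. Without the 10 highest members the rest held 6.87% and 6.06% in the DMSO pair, 6.78% and 8.01% in the 2 h pair, and 7.69% and 7.51% in the 4 h pair, so both 4 h values lay above both DMSO values and the 2 h values straddled DMSO A.

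Single sites were first tested on raw counts with no scaling. The filter on low counts set each count against its column's total in sites and asked for enough reads in 2 columns. Raw counts that are level between columns pass it more easily where that total is small, as in 2 h B and at 4 h. Of the 451 members, 377 passed the filter and 74 did not, 44 of these gap-adjacent, with mean counts from 1.17 to 9.17. Those 74 summed to 309 and 315 reads in the DMSO pair, 298 and 243 in the 2 h pair, and 232 and 280 in the 4 h pair, and appear in none of the counts below. No member was called at either time (quasi-likelihood test of edgeR, p adjusted by Benjamini-Hochberg and under 0.05), and 0% of all 5575 tested sites were. At an unadjusted p under 0.05 there were 21 members at 2 h and 16 at 4 h, and limma-voom called 2 at each time. Of all 5575 tested sites, 468 and 239 had such an unadjusted p, and limma-voom called 44 and 17. With the 4 h columns kept as separate libraries, edgeR called 2 members at 2 h and 19 at 4 h, all as falls. The same run called 58 and 345 of all 5575 tested sites, also all as falls.

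The median raw change differed between bands of distance from the gap. The median log2 change at 4 h was −0.83 over the tested members and −1.08 over all tested sites. By distance it was −1.10 from 5 to 2 Mb below the gap start, −0.67 from 2 to 0.5 Mb below, 0.05 within 0.5 Mb, −0.03 from 2.5 to 3.5 Mb above, −0.92 from 3.5 to 5 Mb above and −0.97 from 5 to 8 Mb above. At 2 h the values in the same order were −0.95, −0.59, 0.00, −0.01, −0.88 and −0.95. These medians describe the tested sites of each band and carry no test.

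Neither 4 h column reached either DMSO library in raw counts at 256 of the 451 members (56.8%), both being lower, where all sites gave 79%. This held at 17.9% of the gap-adjacent and 70.4% of the farther sites. Both columns lay above both DMSO libraries at 28 members (6.21%), against 1.04% of all sites, and 21 of the 28 were gap-adjacent. At 2 h both libraries lay below both DMSO libraries at 170 members (37.7%), where all sites gave 49.8%.

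**Figure D4:**
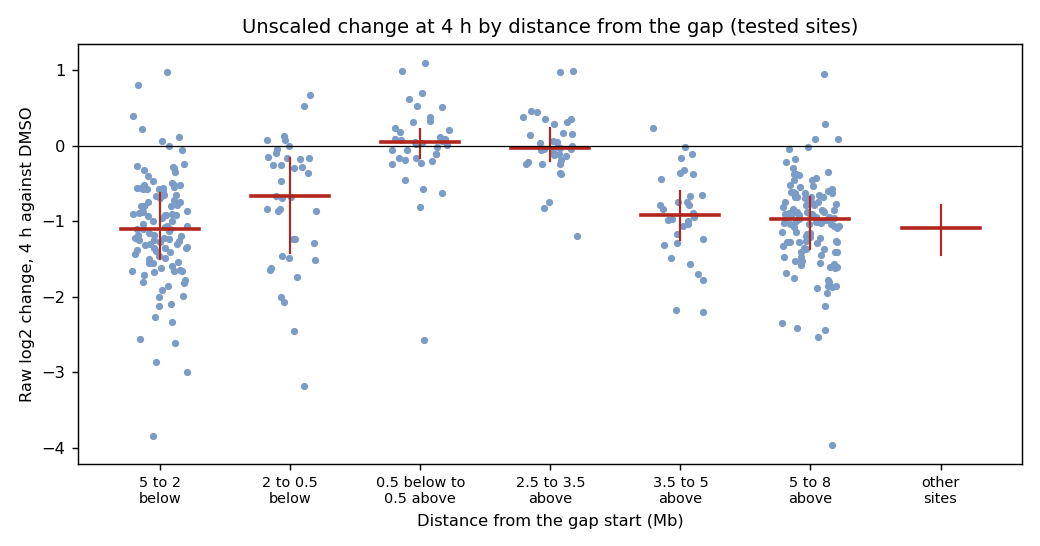
Points are tested member sites by distance from the gap start in Mb, and the y axis gives the raw log2 change from DMSO to 4 h. Red bars mark the median and red lines the quartiles, also for the other sites, whose median is −1.09. The bands at the gap start and from 2.5 to 3.5 Mb above it lie around 0.

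A relative test followed, in which TMM scaling takes out the change that most sites share. The median over all tested sites was 0.02 at 4 h on this scale and −1.08 in raw counts, so a site with equal raw counts appears about 1 log2 unit up. At 2 h, 32 tested members rose relative to the typical site and 11 fell (edgeR quasi-likelihood test, adjusted p under 0.05), where 1.92% of all tested sites rose and 3.62% fell (5.54% in all). Those 32 were 8.49% of the tested members. At 4 h, 44 members (11.7%) rose and 17 (4.51%) fell, where 2.71% of all tested sites rose and 5.49% fell (8.2% in all). The 377 tested members thus held 29.1% of the 151 relative rises at 4 h, and 5.56% of the 306 relative falls.

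Relative rises gathered beside the gaps and relative falls did not. Of 73 tested gap-adjacent sites, 27 (37%) rose and 0 fell at 4 h, and 21 (28.8%) rose and 0 fell at 2 h. Weak sites with level counts could enter the test through the treated columns alone. The tested set thus leans toward rises, and these shares are not independent of the filter. Without the filter, 48 of 451 members rose and 19 fell at 4 h, where 170 and 318 of all 5782 sites did. The median relative log2 change over these 73 sites was 1.02 at 4 h and 0.95 at 2 h, against 0.02 and 0.01 over all tested sites. Of 304 tested farther sites, 17 rose and 17 fell at 4 h (5.59% each), where all tested sites gave 2.71% and 5.49%. At 2 h 11 rose and 11 fell (3.62% each), where all tested sites gave 1.92% and 3.62%. The falls at farther sites were thus near the share over all tested sites. Scaled on the gap-adjacent sites themselves, an alternative added after seeing the data, 0 members were called at either time by edgeR. At an unadjusted p under 0.05 there were 22 at 2 h and 24 at 4 h, where all tested sites gave 529 and 420. The median over all tested members turned negative on this scale, −0.78 at 2 h and −0.87 at 4 h. DESeq2 called 3 at each time, against 43 and 61 in edgeR. Of all 5575 tested sites DESeq2 called 15 and 18, and edgeR 309 and 457. Without DMSO B edgeR called 5 and 17, without DMSO A 77 and 92, without the 2 h library B 8 at 2 h, and without the 4 h column A or B 37 or 29 at 4 h. Over all tested sites, too, calls became fewer or more numerous in the same runs as at the members. Of the 32 called changes at named sites, 18 lost their call without DMSO B and 0 changed sign in any alternative run.

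Most relative rises came with little raw change between the groups. Of the 44 members that rose at 4 h, 26 had a raw log2 change within 0.3 of 0, while the highest of the 6 counts was 1.17 to 5.2 times the lowest (median 1.78), and at 17 both 4 h columns lay above both DMSO libraries. At chr2:92275759-92276159 there were 65 and 59 reads in the DMSO pair, 69 and 62 in the 2 h pair, and 68 and 65 in the 4 h pair, and the site passed the relative test at 4 h (adjusted p = 0.0121). At chr10:42400280-42400680 there were 79 and 78 reads in the DMSO pair, 86 and 74 in the 2 h pair, and 99 and 93 in the 4 h pair (relative log2 change 1.33, SE 0.296, edgeR adjusted p = 0.00287). The 2 h counts of that site straddled the controls. These 2 sites were named after their values were seen. So was chr2:92318480-92318880, with 23 and 30 reads in the DMSO pair, 29 and 20 in the 2 h pair and 33 in both 4 h columns (adjusted p = 0.00102). At chr12:38543647-38544047, 3.64 Mb above the gap start, the counts were 135 and 134, 141 and 121, and 174 and 143 in the same order (adjusted p = 0.0119). The 4 h counts lay above both controls at these last 2 sites and at chr10:42400280-42400680.

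The 10 highest members had relative log2 changes at 4 h from 0.84 to 1.16, with SEs from 0.414 to 0.939. Their adjusted p was between 0.104 and 0.589 (edgeR), and none was called at either time.

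Some members gained reads also before scaling. The relative log2 change at chr17:22020629-22021029, whose counts are given above, was 2.17 at 4 h (SE 0.35, edgeR adjusted p = 6.12e-05), the largest among the members. At chr2:88124447-88124847, 4.18 Mb before the gap start, there were 42 and 72 reads in the DMSO pair, 121 and 55 in the 2 h pair, and 133 and 92 in the 4 h pair (relative log2 change 2.08, SE 0.253, edgeR adjusted p = 5.33e-07). At chr3:96336818-96337218, 5.84 Mb above the gap start, there were 11 and 18 reads in the DMSO pair, 38 and 20 in the 2 h pair, and 28 and 27 in the 4 h pair. At this last site all treated counts were above both controls, and the site met the filter only through the treated columns. The raw change of these 3 sites was not called (edgeR adjusted p = 0.644 at each).

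Weak sites also appear among the largest relative rises. At chr17:22252017-22252417, 48 kb before the gap start, there were 7 and 7 reads in the DMSO pair, 18 and 10 in the 2 h pair, and 14 and 13 in the 4 h pair. At chr6:62284037-62284437, 3.48 Mb above the gap start, there were 9 and 7 reads in the DMSO pair, 15 and 15 in the 2 h pair, and 16 and 15 in the 4 h pair. At chr17:19506190-19506590, 2.79 Mb before the gap start, there were 15 and 17 reads in the DMSO pair, 40 and 18 in the 2 h pair, and 30 and 26 in the 4 h pair. All treated counts exceeded all control counts at these 3 sites, each of which passed the relative test at both times, and the counts were small. The DMSO pair alone would not have met the filter at any of them. They were tested only through the treated columns, where they are high, so their calls do not count as support for a rise.

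**Figure D5:**
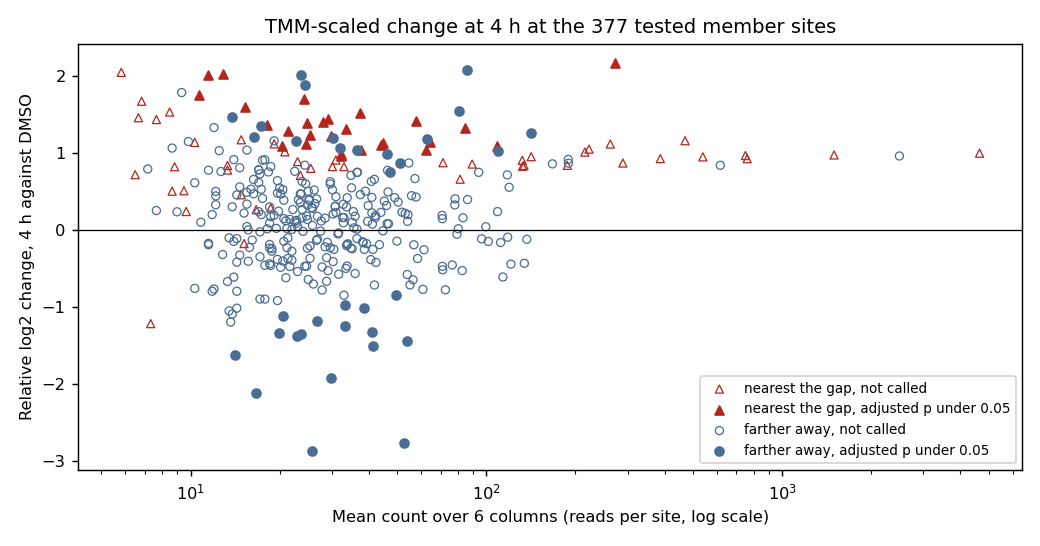
Each point is a tested member site, with its mean count on a log x axis and its TMM-scaled log2 change from DMSO to 4 h on the y axis. Triangles are the 73 gap-adjacent and circles the 304 farther sites, and filled symbols passed the test. The median of the gap-adjacent sites is 1.02, and the filled symbols below 0 are all circles.

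The relative falls were all at farther sites, where their share was near that over all tested sites. At chr5:42855673-42856073, 3.54 Mb before the gap start, there were 99 and 163 reads in the DMSO pair, 31 and 4 in the 2 h pair, and 11 and 7 in the 4 h pair (relative log2 change at 4 h −2.76 with an SE of 0.34, edgeR adjusted p = 5.88e-07). Further on, at chr17:27378220-27378620, 5.08 Mb above the gap start, there were 35 and 93 reads in the DMSO pair, 16 and 2 in the 2 h pair, and 2 and 6 in the 4 h pair (−2.86, SE 0.433, edgeR adjusted p = 1.96e-05). All treated counts were below both controls at both sites. The treated columns alone would not have met the filter at chr17:27378220-27378620.

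Further falls had a similar course. At chr3:87231234-87231634 there were 48 and 82 reads in the DMSO pair, 22 and 11 in the 2 h pair, and 11 and 5 in the 4 h pair. At chr1:120519546-120519946, 0.98 Mb before the gap start, there were 27 and 48 reads in the DMSO pair, 12 and 5 in the 2 h pair, and 4 in both 4 h columns. At chr18:10739265-10739665 there were 73 and 152 reads in the DMSO pair, 45 and 15 in the 2 h pair, and 22 and 16 in the 4 h pair. In all 3 the treated counts lay below both controls, and each fell relative to the typical site at both times. The treated columns alone would not have met the filter at chr1:120519546-120519946. At chr20:22341961-22342361, with 53 and 107 reads in the DMSO pair, 44 and 18 in the 2 h pair, and 16 and 10 in the 4 h pair, the relative log2 change was −1.50 at 4 h (edgeR adjusted p = 0.00085) and −0.42 at 2 h (edgeR adjusted p = 0.335). The 4 h counts of that site lay below both 2 h counts, and the difference between the times was not called.

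Over the 17 members that fell at 4 h, which lay on 9 chromosomes, the mean 4 h count was between 0.0625 and 0.257 times the mean DMSO count, with a median of 0.181. The unscaled test called none of them.

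No member was called between 4 h and 2 h. The relative test of edgeR gave 0 of 377 (14 at an unadjusted p under 0.05), and its raw test gave 0 (0 unadjusted). In limma-voom there were 0 and 0, with 15 and 0 unadjusted, and DESeq2 gave 0, with 0 unadjusted. Among all 5575 tested sites edgeR called 0% on either scale, with 258 relative and 0 raw at an unadjusted p under 0.05.

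Members on both sides of the rounded gap start took part. The 12 sites within 0.5 Mb above that start are counted as above it, but may lie before the true gap. The 226 members below the gap start summed at 4 h to 0.802 times the DMSO mean and the 225 above it to 0.708 times, where the sites elsewhere gave 0.479. Of 178 tested sites below the start, 22 rose (12.4%) and 9 fell (5.06%) relative to the typical site at 4 h, and of 199 above it, 22 rose (11.1%) and 8 fell (4.02%). Over all tested sites the shares were 2.71% and 5.49%, so the falls on both sides were near the overall share. The counts per chromosome below are small and are given as a description. The member site with the highest mean count was gap-adjacent on 9 of 23 chromosomes. On chromosome 2 the reads at members summed at 4 h to 0.97 times the DMSO mean, and 6 of 23 tested sites rose relative to the typical site at 4 h with 0 falls. On chromosome 5 the ratio was 0.284, with 0 rises and 3 falls among 10 tested sites. Chromosome 10 had 6 rises and 0 falls among 30 tested sites and a ratio of 0.843, and chromosome 17 had 7 rises and 3 falls among 19. On chromosome 13, where all 19 members lay above the gap start and none was gap-adjacent, the ratio was 0.453, with 0 rises and 1 fall. None of the 5 members on chromosome 9 passed the filter.

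Strong farther sites with uneven DMSO counts were also present. At chr20:22410821-22411221 there were 144 and 279 reads in the DMSO pair, 248 and 109 in the 2 h pair, and 180 and 176 in the 4 h pair. At chr3:86918757-86919157 there were 135 and 274 reads in the DMSO pair, 113 and 37 in the 2 h pair, and 57 and 66 in the 4 h pair. At chr13:22682962-22683362 there were 129 and 276 reads in the DMSO pair, 132 and 53 in the 2 h pair, and 49 and 87 in the 4 h pair. DMSO B held 1.94, 2.03 and 2.14 times the reads of DMSO A at these sites, where all sites together gave 1.68. Much of the unevenness was thus common to the whole library. At the first of these sites, named after its values were seen, the treated counts overlapped the controls.

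The ends of the windows ran through ordinary sites. The member closest to the lower end, chr12:29935229-29935629, had 23 and 38 reads in the DMSO pair and 8 and 13 in the 4 h pair, and the nearest site outside it, chr8:38794454-38794854, had 31 and 58 and 28 and 27. At the upper end, chr13:23952119-23952519 inside had 57 and 116 reads in the DMSO pair and 38 and 54 in the 4 h pair, and chr13:24022098-24022498 outside had 58 and 95 and 54 and 50.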

How the data were processed

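CUT&RUN reads were counted per site by the authors, and the deposited values are raw counts with no normalization. DESeq2, DiffBind, deepTools, Genrich 0.6.1, Trimmomatic 0.32, Bowtie2 and build hg19 appear in the submitters' processing notes, with no roles or settings. How duplicate and multiply mapped reads were treated, and how sites were chosen, is not given in the sources used here. Each site is 400 bases long. Coordinates are as in the file, and may be off by 1 base. Of 6 count columns, the 2 named DMSO were assigned to the crosslinked group, the only DMSO group with 2 samples. Their letters are not tied to replicate numbers. Exact binomial intervals cover counting error only.

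Sites were kept by filterByExpr (minimum count 10, total 15; 207 of 5782 removed) and tested with edgeR 4.0.16 (quasi-likelihood, R 4.3.3) over all 5575, in 1 fit of 5 libraries (2 residual degrees of freedom). The 4 h columns were summed in the TMM fit, and their rounded mean was used in the unscaled fit, in which every library had the same size. The biological coefficient of variation was 12.7% and 45.4%. An SE is the log2 change over the square root of F. Alternatives were limma-voom (limma 3.58.1), DESeq2 1.42.0, other scalings, filters, windows and left-out libraries. The fits were also run on simulated data with changes and spread set in advance, which checks the code and not these results. Permutations used Python 3.11.15.

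The members, limits and lists were chosen with earlier results of these data known. Named sites were the 12 highest members, the highest on each chromosome, up to 8 largest relative falls and rises per time, the 5 largest raw changes each way and those at the window ends; others are named as examples chosen after their values were seen.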

Additional observations from a re-analysis of the deposited data

How the results depend on the processing

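Read depth limits single sites, since the median member held between 12 and 38 reads per library. Of 238 alternative values of the main results, 205 kept their direction and stayed within 1.5 times a count or within the spread between libraries of a median. Relative calls at members were 43 at 2 h and 61 at 4 h. They became 3 and 3 with DESeq2 and 0 and 0 scaled on the gap-adjacent sites, where all 5575 tested sites gave 15 and 18, and 0 and 0. They were 22 and 34 without the gap-adjacent sites (fewer sites by construction), and 37 at 4 h in a narrower window (2 Mb below to 5 Mb above the gap start). Leaving out 1 library gave 5 to 77 at 2 h and 17 to 92 at 4 h: 77 and 92 without DMSO A, 5 and 17 without DMSO B, 8 at 2 h without the 2 h library B, and 37 and 29 at 4 h without the 4 h column A or B. Over all tested sites, calls shifted the same way in the runs and at the times just listed. Raw calls (0) became 2 at 2 h and 19 at 4 h with every column separate, and 2 and 2 with limma-voom. All tested sites gave 58 and 345, and 44 and 17, in the same order. The relative median log2 change of members, 0.15 at 2 h and 0.25 at 4 h, became 0.80 and 0.83 in the narrower window, −0.78 and −0.87 scaled on the gap-adjacent sites and 0.024 and 0.12 without them, 0.049 and 0.12 scaled on totals in sites, and 0.10 to 0.26 at 2 h leaving out 1 library. From 2 h to 4 h it was 0.04, −0.13 scaled on the gap-adjacent sites, and −0.082 to 0.15 leaving out 1 library. The raw medians, −0.78 and −0.83, became −0.18 and −0.19 in the narrower window. Leaving out 1 library gave −1.40 to −0.36 at 2 h and −1.08 to −0.46 at 4 h, with −0.44 to 0.48 from 2 h to 4 h. Apart from the smaller sets, the cause was not tested. A minus B differences correlated at −0.204 between DMSO and 2 h, 0.0127 between DMSO and 4 h and −0.00748 between 2 h and 4 h. No label says whether letters pair libraries, and these values cannot settle it. With the letter as a replicate block and every column separate, 2 h gave 24 relative calls and 4 h gave 58, with 0 raw calls at each time. All tested sites gave 175 and 436 relative calls in that run. The gap-adjacent scaling and set, and the block with separate columns, were chosen after seeing the data. The share and total of member reads kept their direction in all alternatives run. Of the 32 named changes, DESeq2 gave an adjusted p for 25, of which 19 were not called.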
